A study of Mus musculus with 6 samples.

Results

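A set of 36 imprinted genes that lie outside the Dlk1-Meg3 region were followed in cultured mouse neural stem cells with and without Phf2, a gene of the Jumonji family that encodes a demethylase of histone H3 lysine 9. The genes were taken by symbol from a fixed list, and all 36 were found among the 24503 symbols of the count table. RNA-seq libraries came from primary neural stem cells of the cortex of E13.5 embryos, enriched as neurospheres and grown on laminin with FGF and EGF. The control cells (WT, n = 3 libraries) were Phf2flox/flox without Cre. The knockout cells (KO, n = 3) were Phf2flox/flox with the Nestin-Cre transgene, whose Cre is driven by a promoter active in neural progenitors. Both groups thus carry the floxed alleles, and the transgene and the loss of Phf2 cannot be told apart. The labels do not say whether libraries came from separate embryos or cultures, so each p-value reflects the spread among these libraries alone, and that spread could be technical.

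In imprinted genes, DNA methylation laid down in the egg or sperm marks 1 parental copy, and in most tissues only the maternal or only the paternal copy is transcribed. The genes lie in clusters, each steered by an imprinting control region, and several are studied as regulators of fetal growth and of brain development. In the brain some behave differently from other tissues: Grb10 and Ube3a change their allelic use in neurons, and Igf2r is transcribed from both copies there. The reads counted here were summed over both copies, so a level says nothing about which copy was transcribed, and the allele named beside each gene is background knowledge of the mouse.

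Total counts ranged from 33413444 to 46890314 per library. Values are read counts scaled to library size (CPM) scaled by the TMM method, and "called" means a Benjamini-Hochberg adjusted p under 0.05 over all 13683 genes tested in edgeR's quasi-likelihood test. Phf2 itself was at 109, 90.4 and 77.8 CPM in WT and 56.3, 48.1 and 48.8 CPM in KO, so that its groups did not overlap (means ± SD 92.3 ± 15.5 and 51.1 ± 4.56, n = 3). Phf2 fell with the block (log2 −0.84 ± 0.0743, SE, adjusted p = 0.000123) and was not called without it (adjusted p = 0.182). Its count covers the whole gene, and which exons were removed is not stated in the labels. The libraries numbered 1 stood apart from numbers 2 and 3 in both groups, with 28.2% of all genes called higher and 29.4% called lower in number 1. A fit that takes the replicate number as a block removes that shared difference and is given beside the unblocked fit. KO 2 and KO 3 differed by 2.21 times the counting noise (ratio of median chi-square values over genes), against 10.9 to 66.9 times for the other pairs within a group. They were kept as 2 samples, and a fit with their counts summed as 1 library is given as an alternative. Of 10 neural stem cell markers, all tested, Vim was at 4591 CPM, Fabp7 at 1997 CPM, Nes at 1046 CPM and Sox2 at 466 CPM on average in WT. Hes5, a Notch target, was called higher in KO with the block (log2 0.32 ± 0.0687, adjusted p = 0.0161) but not with numbers 2 and 3 alone (adjusted p = 0.0692) or KO 2 and KO 3 summed (adjusted p = 0.0583). In number 1, 8 of the 10 markers were lower and 1 higher.

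Without the block, none of the imprinted genes was called in either direction in edgeR, against 0.0292% of all genes called higher and 0.0292% called lower. Of the 36, 30 passed the filter on low counts and were tested, and 4 of them had an unadjusted p under 0.05. DESeq2 without a block called 1 higher (Asb4), against 0.468% of all genes, and 2 lower (Grb10 and Slc38a4), against 1.45%. With the block DESeq2 called 3 higher (3.75% of all genes) and 5 lower (5.42%). With the replicate block edgeR called 1 of the 30 higher, against 3.33% of all genes, and 4 of the 30 lower, against 6.46% of all genes. The gene that rose was Asb4, and those that fell were Slc38a4, Grb10, Ndn and Mest. The median log2 fold change of the 30 was −0.05 with the block, beside 0.01 over all genes. Numbers 2 and 3 alone gave 1 higher (1.82% of all genes) and 4 lower (3.57%), and summing KO 2 and KO 3 gave 1 higher (1.13%) and 3 lower (3.8%). With the block, edgeR called 1 higher (2.61% of all genes) and 3 lower (4.93%) without number 1, and 2 higher (4.16%) and 5 lower (6.48%) without number 3. Without number 2 it called 7 higher (3.71% of all genes) and 5 lower (5.36%), so that more imprinted genes were called higher there than in the full set of libraries. Those 7 were Asb4, Peg10, Ppp1r9a, Igf2r, Peg3, Kcnq1ot1 and Ube3a, and Snrpn was among the 5 lower. Without number 3 Nnat was also called higher and Plagl1 lower. These added genes are named for their calls in those fits alone.

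Among the 5 called genes, Asb4 and Grb10 are reported as maternally expressed, and Slc38a4, Ndn and Mest as paternally expressed. By allele, 1 of 9 tested maternally expressed genes rose and 1 fell, and of 20 tested paternally expressed genes 0 rose and 3 fell, in the same blocked fit. Of all genes 3.33% rose and 6.46% fell in that fit. The remaining tested gene was Gnas, which uses both copies according to the promoter. In the next paragraphs each called gene is given in all 6 libraries, and the plot of the called genes by library shows the same values.

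**Figure D1:**
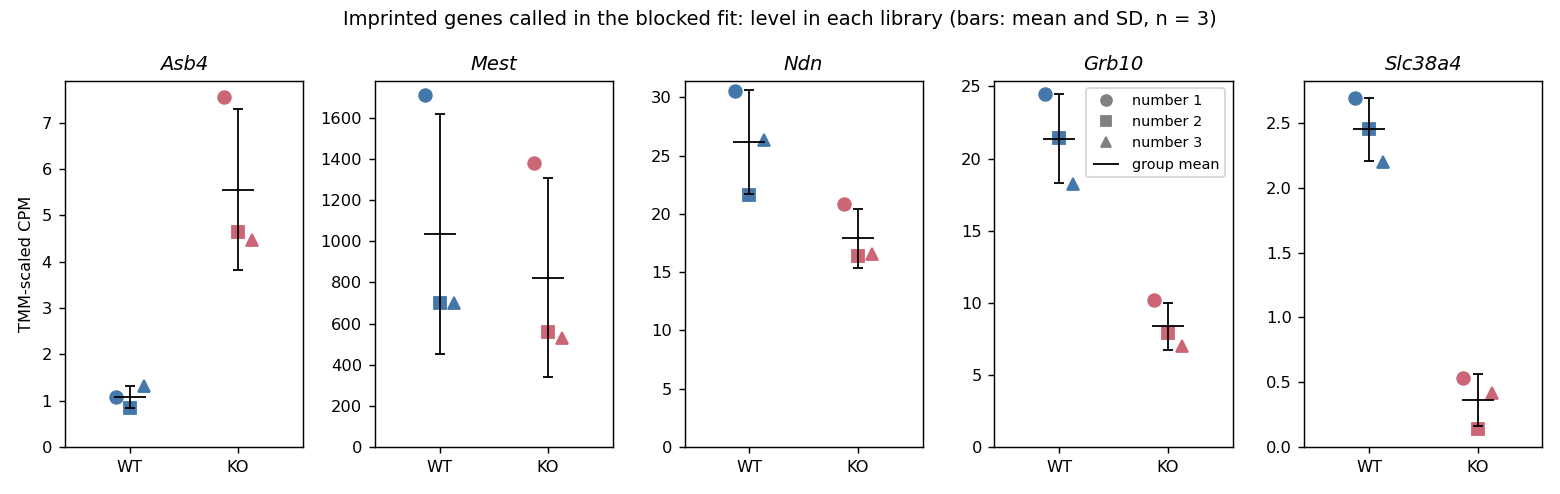
TMM-scaled CPM (vertical axis, each panel from 0) of the 5 imprinted genes called with the replicate block, by group; symbols mark the replicate number and bars the mean and SD of 3 libraries. The 3 KO points of Asb4 lie above all its WT points, those of Ndn, Grb10 and Slc38a4 lie below, and the Mest libraries numbered 1 lie above the others in both groups.

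Asb4 encodes an ankyrin repeat and SOCS box protein that serves as the substrate adaptor of a ubiquitin ligase. It was at 1.09, 0.843 and 1.31 CPM in WT 1, 2 and 3 and at 7.57, 4.64 and 4.46 CPM in KO 1, 2 and 3. The KO libraries were all above the WT libraries, and the KO mean was 5.14 times the WT mean. The log2 fold change was 2.34 ± 0.209 (SE) with the block (adjusted p = 0.000131) and 2.36 ± 0.312 without it (adjusted p = 0.105). Within numbers, the log2 difference was 2.79 in number 1, 2.44 in number 2 and 1.76 in number 3. The gene lies on chromosome 6 (5383386 to 5433022, plus strand, GRCm38), in the cluster of Peg10 and Sgce.

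None of the 3 other members of that cluster was called by edgeR with all libraries and the filter on low counts, with or without the block. Peg10 was called higher with no filter and the block (log2 0.27, adjusted p = 0.0390), and without number 2 Peg10 (0.40, adjusted p = 0.00245) and Ppp1r9a (0.44, adjusted p = 0.00167) were called higher. DESeq2 with the block called Peg10 (adjusted p = 0.0337) and Ppp1r9a (adjusted p = 0.0440) higher. Peg10, a gene derived from a retrotransposon and needed for the placenta, was at 842, 310 and 238 CPM in WT and 1066, 314 and 326 CPM in KO. Sgce, the epsilon-sarcoglycan gene, had 35.3 ± 5.76 CPM in WT against 34.9 ± 5.67 CPM in KO. Ppp1r9a, which encodes the actin and phosphatase binding protein neurabin, was at 76.2, 74.3 and 53.0 CPM in WT and 90.8, 76.8 and 82.1 CPM in KO. Its KO libraries were all above the WT libraries, by a log2 fold change of 0.31 ± 0.0992 with the block (adjusted p = 0.0825). Whether Asb4 differed from its neighbours in response was not tested.

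Slc38a4 encodes an amino acid transporter of the system A family and is known for a role in placental growth. Its levels were 2.70, 2.45 and 2.20 CPM in WT 1, 2 and 3 and 0.535, 0.141 and 0.416 CPM in KO 1, 2 and 3. No KO library reached the level of a WT library, and the WT mean was 6.73 times the KO mean. The KO values rest on 22, 6 and 14 counts, against 99 to 124 counts in WT, so the fold rests on few counts in KO. The log2 fold change was −2.79 ± 0.323 (SE) with the block (adjusted p = 0.00057) and −2.75 ± 0.471 without it (adjusted p = 0.176). Within numbers it was −2.31, −4.01 and −2.36 for numbers 1, 2 and 3. The gene lies on chromosome 15 (96994820 to 97055956, minus strand, GRCm38).

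Grb10 encodes an adaptor protein that binds the insulin and IGF1 receptors and restrains growth. It was at 24.5, 21.4 and 18.3 CPM in WT 1, 2 and 3 and at 10.2, 7.90 and 7.02 CPM in KO 1, 2 and 3. The groups did not overlap, and the WT mean was 2.56 times the KO mean. The log2 fold change was −1.36 ± 0.0929 (SE) with the block (adjusted p = 2.36e-05) and −1.35 ± 0.194 without it (adjusted p = 0.123). The difference was −1.27, −1.44 and −1.38 within numbers 1, 2 and 3. Grb10 had the lowest adjusted p of the 36 genes in the blocked fit. It lies on chromosome 11 (11930508 to 12038683, minus strand, GRCm38), and its neighbour Ddc, the aromatic amino acid decarboxylase gene, was not called (0.388 ± 0.136 CPM in WT, 0.322 ± 0.145 CPM in KO).

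Ndn encodes necdin, a MAGE family protein of postmitotic neurons and of the Prader-Willi region. Its levels were 30.5, 21.6 and 26.4 CPM in WT 1, 2 and 3 and 20.8, 16.4 and 16.6 CPM in KO 1, 2 and 3. KO 1, the highest KO library, stayed just below WT 2, the lowest of WT. With the block the log2 fold change was −0.54 ± 0.0845 (SE) (adjusted p = 0.00325), and without it −0.55 ± 0.177 (adjusted p = 0.616). Ndn lies on chromosome 7 (62346569 to 62350262, plus strand, GRCm38).

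Mest, a gene of the alpha/beta hydrolase family known from embryonic mesoderm, was at 1710, 697 and 700 CPM in WT 1, 2 and 3. In KO 1, 2 and 3 it was at 1382, 558 and 527 CPM. The groups overlapped because the libraries numbered 1 were high in both, and within numbers the log2 difference was −0.31, −0.32 and −0.41. The log2 fold change was −0.35 ± 0.0668 (SE) with the block (adjusted p = 0.00957) and −0.33 ± 0.519 without it (adjusted p = 0.999). The blocked call was lost with number 1 left out (−0.37, adjusted p = 0.0528) and with KO 2 and KO 3 summed (−0.34, adjusted p = 0.0642). In numbers 2 and 3 alone without the block, edgeR called Mest lower (−0.36, adjusted p = 0.0397). The unblocked value changed sign without WT 1, to 0.25. Mest lies on chromosome 6 (30723547 to 30748465, plus strand, GRCm38), and 912 of its exonic bases are shared with Copg2 on the other strand.

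The promoter windows of these 5 genes are shown because their levels passed the test, and each spans 250 bases before to 50 after a start site in RefSeq on GRCm38.p6. Capitals mark TGCCGC or its reverse complement GCGGCA, the core of the motif bound, when methylated, by the imprint-protecting zinc finger protein ZFP57. For Asb4, Grb10 and Slc38a4, which have several start sites, the window of the most upstream one is given. For Mest a downstream window is given, chosen because it holds matches.
Asb4, chr6:5383136-5383435, plus strand: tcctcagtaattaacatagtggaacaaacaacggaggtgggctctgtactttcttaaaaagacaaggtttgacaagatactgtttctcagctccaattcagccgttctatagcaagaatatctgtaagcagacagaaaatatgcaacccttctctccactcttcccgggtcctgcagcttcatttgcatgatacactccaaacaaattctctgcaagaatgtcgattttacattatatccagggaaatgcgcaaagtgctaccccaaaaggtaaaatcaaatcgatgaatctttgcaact
Slc38a4, chr15:97055907-97056206, minus strand: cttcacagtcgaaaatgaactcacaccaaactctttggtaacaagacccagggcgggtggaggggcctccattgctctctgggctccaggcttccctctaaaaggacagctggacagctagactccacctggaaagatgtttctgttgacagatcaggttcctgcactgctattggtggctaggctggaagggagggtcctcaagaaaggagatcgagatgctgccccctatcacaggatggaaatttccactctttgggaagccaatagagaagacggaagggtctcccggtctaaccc
Grb10, chr11:12037371-12037670, minus strand: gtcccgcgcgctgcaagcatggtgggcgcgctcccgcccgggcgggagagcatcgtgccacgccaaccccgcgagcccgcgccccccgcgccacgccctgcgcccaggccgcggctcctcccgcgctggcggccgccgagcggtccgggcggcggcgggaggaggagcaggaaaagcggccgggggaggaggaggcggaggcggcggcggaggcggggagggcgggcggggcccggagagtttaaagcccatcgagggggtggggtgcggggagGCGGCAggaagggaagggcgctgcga
Ndn, chr7:62348027-62348326, plus strand: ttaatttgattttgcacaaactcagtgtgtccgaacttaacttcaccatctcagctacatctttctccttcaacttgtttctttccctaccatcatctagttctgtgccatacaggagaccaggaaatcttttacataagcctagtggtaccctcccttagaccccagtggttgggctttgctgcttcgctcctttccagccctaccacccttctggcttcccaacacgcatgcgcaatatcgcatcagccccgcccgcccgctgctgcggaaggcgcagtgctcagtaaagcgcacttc
Mest, chr6:30737800-30738099, plus strand: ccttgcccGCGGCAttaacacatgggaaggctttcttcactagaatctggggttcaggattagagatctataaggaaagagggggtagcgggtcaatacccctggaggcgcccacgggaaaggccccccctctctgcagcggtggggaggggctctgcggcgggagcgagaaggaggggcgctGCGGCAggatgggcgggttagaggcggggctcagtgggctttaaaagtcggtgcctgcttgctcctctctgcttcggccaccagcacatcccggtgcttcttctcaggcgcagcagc
The Grb10 window held 45 CpG dinucleotides, 1 match of the motif and a CpG observed-to-expected ratio of 0.973. The Mest window held 17 CpG and 2 matches, and the Slc38a4, Asb4 and Ndn windows held 5, 6 and 11 CpG and no match. Other windows of the same genes differed: the most upstream Mest window held 8 CpG and 0 matches (ratio 0.327), and the downstream Grb10 window held 9 CpG and 0 matches (ratio 0.446). The windows printed ranged in CpG content from 0.238 (observed over expected) in Slc38a4 to 0.973 in Grb10. In all, 29 of the 36 genes had 46 windows among those read, some of them overlapping. Of these windows, 11 (23.9%) held the motif on either strand, against 11.6% of all 32851 promoter windows, and the median ratio was 0.614 against 0.384. Among the 11 are 2 nearly identical Mest windows, starting at 30737800 and 30737803, with the same matches. The shares are of windows, and a share by gene was not taken. A match describes the letters and not a bound site. No window was read for H19, Peg10, Sgce, Dcn, Impact, Peg13 and Trappc9. Whether Impact has a window among the 32851 was not established, so the shares may compare sets of windows chosen by different rules.

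**Figure D2:**
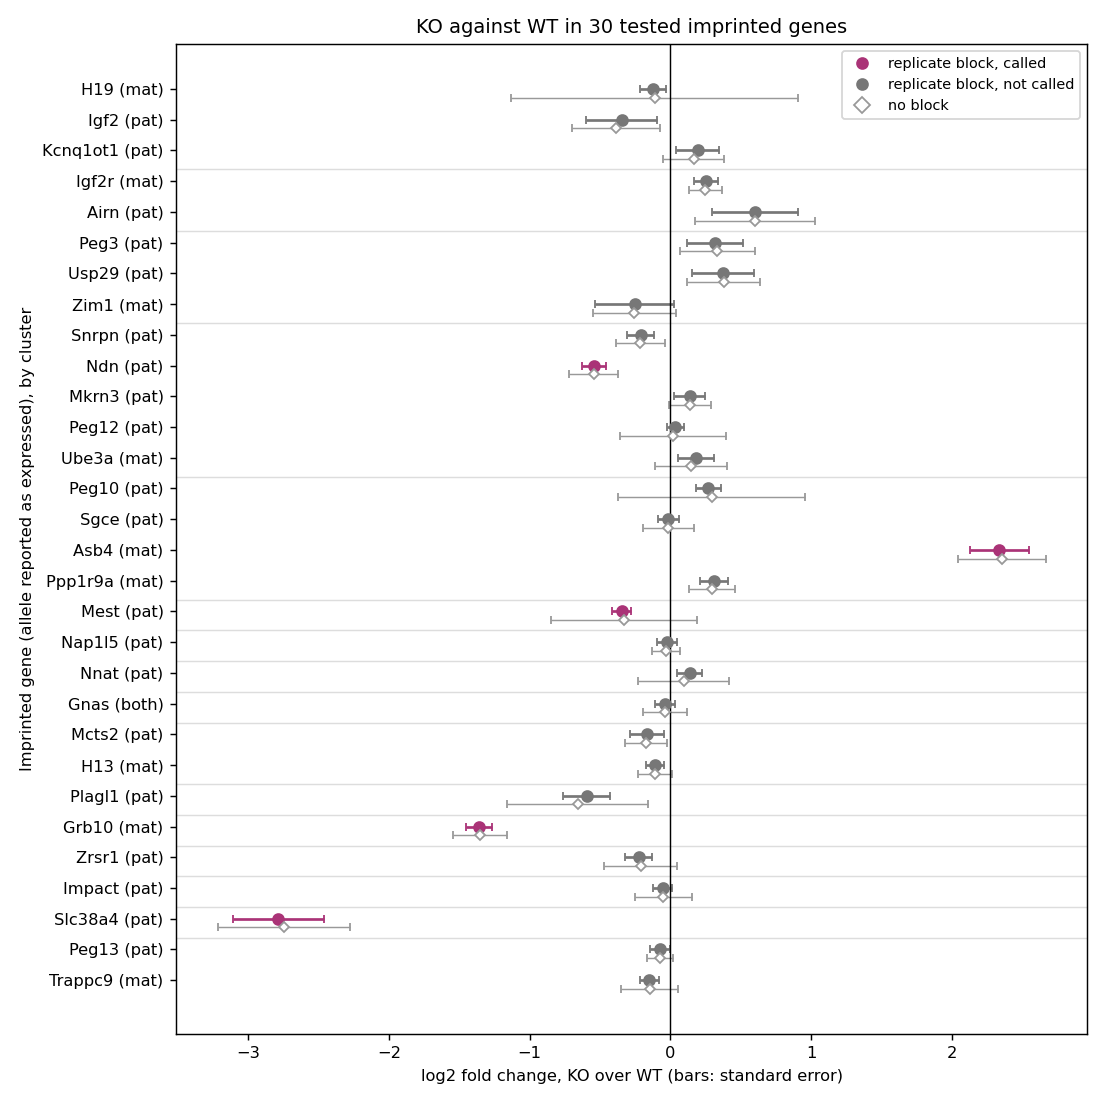
Log2 fold change of KO over WT (horizontal axis) for the 30 tested imprinted genes, ordered by cluster and separated by grey lines; filled circles are from the fit with the replicate block, open diamonds from the fit without it, and bars are standard errors. Asb4 (2.34) lies farthest to the right and Slc38a4 (−2.79) farthest to the left, and the unblocked bars of H19 (1.02) and Peg10 (0.664) are the widest.

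In the cluster of Snrpn and Ube3a on chromosome 7, which matches the human Prader-Willi and Angelman region, Ndn was the member that fell among 5 tested genes. Peg12, a relative of the Frat regulators of Wnt signalling, was at 189, 91.2 and 95.5 CPM in WT and 183, 97.9 and 99.3 CPM in KO. Snrpn, which encodes a spliceosomal protein and shares 216 exonic bases with Snurf on the same strand, had 46.9 ± 7.83 CPM in WT against 40.4 ± 6.10 CPM in KO. Mkrn3, a RING finger gene, was at 7.30 ± 0.495 and 8.03 ± 0.701 CPM. Ube3a, the ubiquitin ligase gene of Angelman syndrome, was at 101 ± 32.5 and 112 ± 18.5 CPM, and 1803 of its exonic bases are shared with Snhg14 on the other strand. None of these 4 was called in either fit.

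Magel2, the MAGE gene next to Ndn, was too low to be tested, with 10, 1 and 5 counts in WT 1, 2 and 3 and 0 counts in each KO library. A count of 0 allows up to 3 counts, or 0.0706, 0.0710 and 0.0898 CPM in KO 1, 2 and 3. WT 2, at 0.0248 CPM, lay under those limits, so a difference was not detectable in each replicate number at this depth. WT 1 and WT 3, at 0.217 and 0.106 CPM, lay above them. For the KO libraries pooled the limit was 0.0254 CPM, beside a WT mean of 0.116 CPM, and this difference was not tested.

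The H19-Igf2 and Kcnq1 clusters at the distal end of chromosome 7 hold the growth factor gene Igf2, the maternally expressed noncoding RNA H19, the long noncoding RNA Kcnq1ot1 and Phlda2. H19 was at 2.54, 21.1 and 25.9 CPM in WT 1, 2 and 3 and at 2.19, 20.4 and 23.2 CPM in KO 1, 2 and 3. KO and WT were close within each number, with log2 differences of −0.21, −0.05 and −0.16, and both libraries numbered 1 were far below the rest. Igf2 was low, with 2.40 ± 0.787 CPM in WT against 1.83 ± 0.231 CPM in KO, and its direction differed within numbers (0.48, −0.85 and −0.62). Kcnq1ot1, the paternally expressed RNA that silences its cluster, was at 14.4, 19.4 and 11.1 CPM in WT and 17.1, 15.8 and 17.4 CPM in KO. Phlda2, a placental growth restrainer, had 0 counts in all 6 libraries. None of the 3 tested genes was called in either fit.

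Igf2r encodes the receptor that clears IGF2 and sorts lysosomal enzymes. It was at 103, 97.1 and 81.6 CPM in WT and 117, 103 and 115 CPM in KO, and its log2 fold change of 0.25 ± 0.0824 with the block had an adjusted p of 0.0859. Airn, the RNA transcribed across Igf2r from the opposite strand, had 0.603 ± 0.202 CPM in WT against 0.918 ± 0.365 CPM in KO. The organic cation transporter gene Slc22a3 was not tested, with 2 to 5 counts per library. Neither tested gene of this cluster was called by edgeR with all libraries and the filter, with or without the block, and Igf2r was called higher with the block in 2 alternatives, with no filter (0.25, adjusted p = 0.0427) and without number 2 (0.34, adjusted p = 0.0230).

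In the Peg3 cluster at the proximal end of chromosome 7, the zinc finger gene Peg3 was at 50.2, 66.6 and 41.8 CPM in WT and 45.6, 74.6 and 79.7 CPM in KO. Its neighbours Usp29, a ubiquitin protease gene, and Zim1, a zinc finger gene, were near 1 CPM in both groups. None of the 3 was called in either fit, and Peg3 differed in direction between number 1 (−0.14) and number 3 (0.93).

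Plagl1, a zinc finger gene that regulates growth and other imprinted genes, was at 14.7, 7.02 and 4.51 CPM in WT 1, 2 and 3 and at 8.25, 3.87 and 4.49 CPM in KO 1, 2 and 3. KO was lower in numbers 1 and 2 (log2 −0.83 and −0.86) and level in number 3 (−0.01). Its log2 fold change was −0.59 ± 0.166 with the block (adjusted p = 0.0516) and −0.66 ± 0.502 without it (adjusted p = 0.999). Plagl1 was called in 4 of 23 fits. Among them were DESeq2 with the block (−0.57, adjusted p = 0.0441) and edgeR with the block without number 3 (−0.85, adjusted p = 0.00304).

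None of the remaining tested genes was called in either edgeR fit. Gnas, which encodes the stimulatory G protein alpha subunit, had 1536 ± 217 CPM in WT against 1496 ± 214 CPM in KO. Nnat, the neuronatin gene, was at 428 ± 156 and 456 ± 112 CPM, and Nap1l5, a nucleosome assembly family gene, at 98.7 ± 9.25 and 96.6 ± 1.83 CPM. The standard errors with the block were 0.0723, 0.0874 and 0.0711 (log2) for these 3 genes, beside log2 fold changes of −0.04, 0.14 and −0.03. H13, a signal peptide peptidase gene, and Mcts2, the retrogene in its intron, were at 98.7 and 9.94 CPM in WT and 91.5 and 8.83 CPM in KO. Trappc9, a subunit of a vesicle tethering complex, and the noncoding RNA Peg13 in its intron were at 57.1 and 43.0 CPM in WT and 51.6 and 40.8 CPM in KO. Impact, a regulator of translation, was at 47.9 and 46.3 CPM, and Zrsr1, a retrogene related to a splicing factor, at 14.9 and 12.9 CPM in WT and KO. Dcn, the decorin gene, had 0 counts in all libraries, and Zdbf2 and the exchange factor gene Rasgrf1 had at most 12 counts per library and were not tested.

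Per kilobase of exon the imprinted genes spanned several orders of magnitude, as the plot of levels shows. Mest (263 and 208 CPM per kb in WT and KO), Nnat (234 and 249), Gnas (137 and 134) and Peg10 (69.5 and 85.3) were the highest. Usp29 (0.0619 and 0.0804 CPM per kb) and Zim1 (0.106 and 0.0887) were the lowest of those tested. On this scale Asb4 rose from 0.275 to 1.41 CPM per kb and Slc38a4 went from 0.575 to 0.0855. The libraries of Mest and Nnat overlapped, so their order is not larger than their spread.

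**Figure D3:**
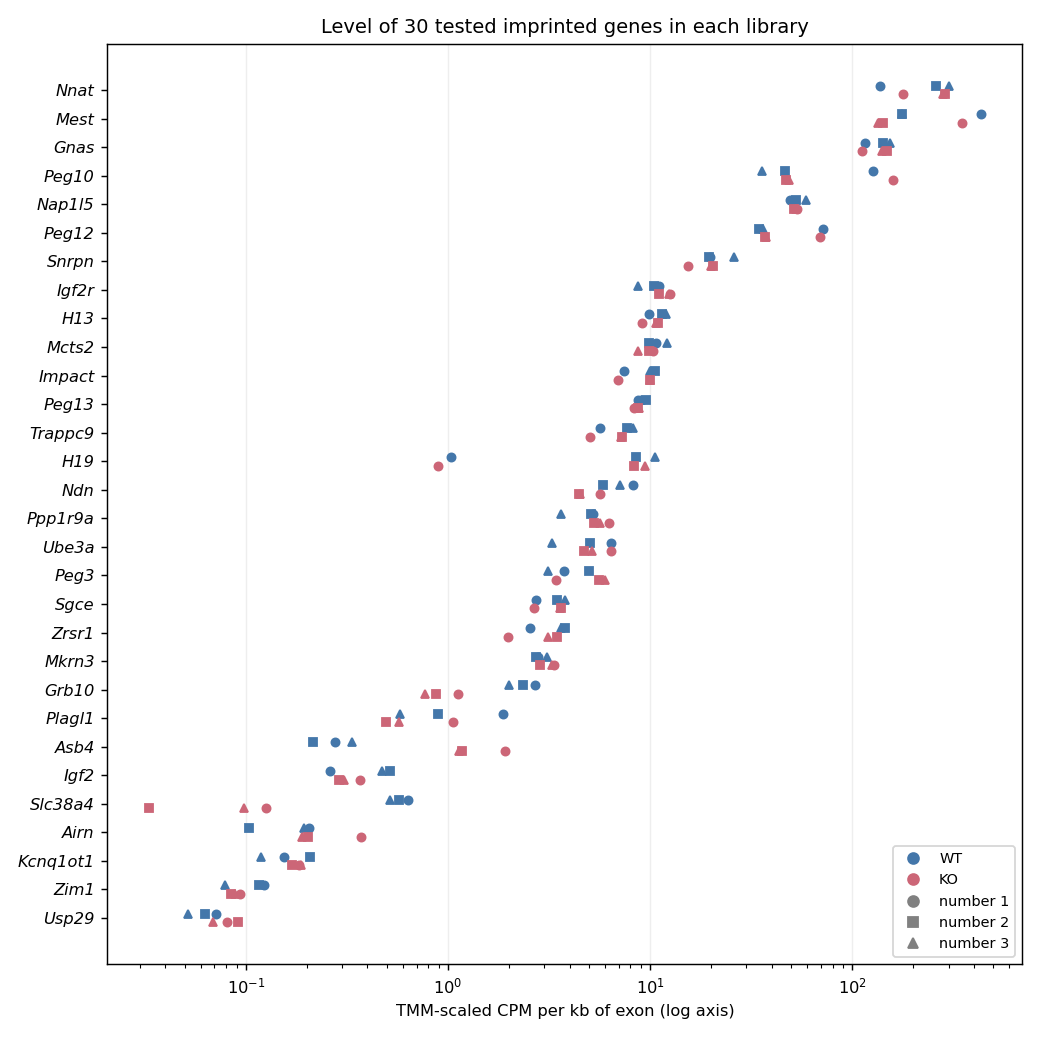
TMM-scaled CPM per kb of exon (log axis) for the 30 tested imprinted genes in each of 6 libraries, ordered by the mean of both groups; colours mark the group and symbols the replicate number. Mest (263 CPM per kb in WT), Nnat (234) and Gnas (137) lie at the top, and the Asb4, Slc38a4 and Grb10 points of the 2 groups are separated.

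In all, 2 of the 30 tested genes (Asb4 and Ppp1r9a) had every KO library above every WT library, as did 4.49% of all genes tested. Another 3 of the 30 (Ndn, Grb10 and Slc38a4) had every KO library below every WT library, as did 6.71% of all genes tested. In the other 25 the groups overlapped.

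More imprinted genes were called between replicate numbers than with genotype. Between number 1 and numbers 2 and 3, with the genotype as a covariate, edgeR called 7 of the 30 higher and 9 lower in number 1, shares close to those of all genes (28.2% and 29.4%). H19 was lower in number 1 by a log2 difference of −3.26 ± 0.139 (SE, adjusted p = 1.17e-06), and Nnat by −0.85 ± 0.0963 (adjusted p = 0.00011). Peg10 was higher by 1.68 ± 0.0947, Mest by 1.32 ± 0.0578, Plagl1 by 1.19 ± 0.174 and Peg12 by 0.95 ± 0.0559. Sgce, which starts beside Peg10 on the opposite strand, was lower in number 1 by −0.42 ± 0.0703 (adjusted p = 0.00102). Of the genes that changed with genotype, Grb10 (0.37 ± 0.101) and Ndn (0.34 ± 0.0905) were also higher in number 1, and Asb4 and Slc38a4 were not called between numbers. What sets number 1 apart is not stated in the labels.

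**Figure D4:**
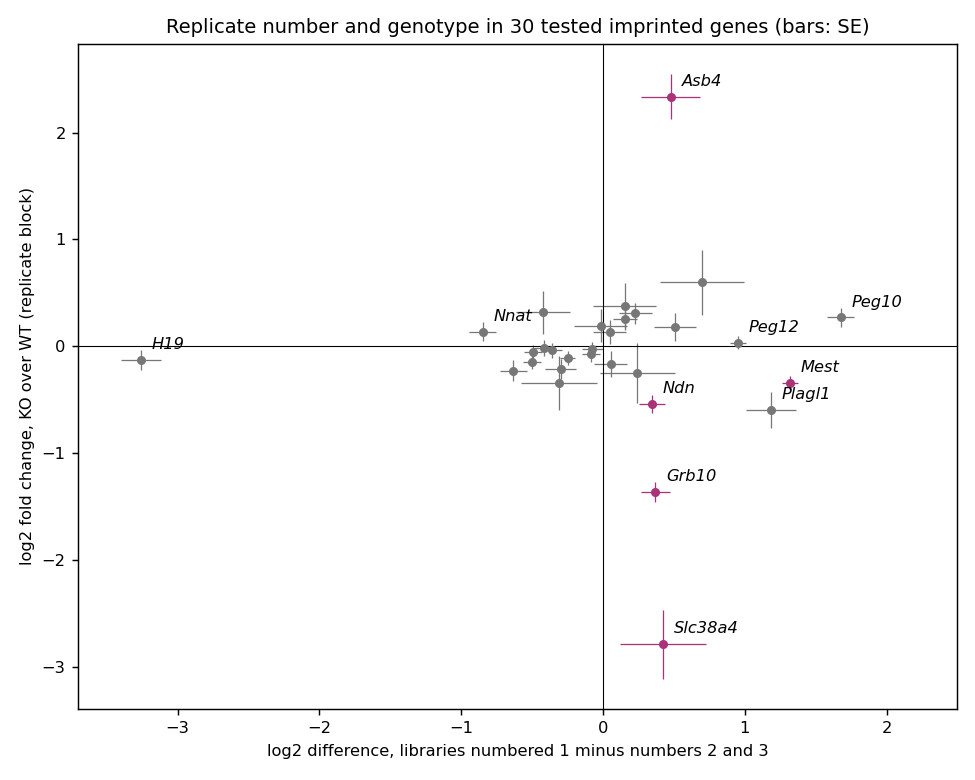
Log2 difference between the libraries numbered 1 and those numbered 2 and 3 (horizontal axis) against the log2 fold change of KO over WT with the replicate block (vertical axis) for 30 tested imprinted genes, with standard errors; purple points are called with genotype. H19 (−3.26) and Peg10 (1.68) lie at the left and right ends near 0 on the vertical axis, and Asb4, Grb10 and Slc38a4 lie far from 0 on the vertical axis.

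Other imprinted genes and genes of the same clusters were read from a second list of 35, of which 34 were in the table and 22 were tested. With the block 0 rose and 2 fell, against 3.33% and 6.46% of all genes. Without the block 0 were called in edgeR or DESeq2, with 1 at an unadjusted p under 0.05 in edgeR. Htr2a, a serotonin receptor gene, went from 2.64 ± 1.65 to 1.03 ± 0.347 CPM (log2 −1.29 ± 0.227, adjusted p = 0.00607 with the block). In edgeR Htr2a was called lower with KO 2 and KO 3 summed (adjusted p = 0.0143) but not in numbers 2 and 3 alone (adjusted p = 0.0783). It was also higher in number 1, by a log2 difference of 1.17 ± 0.206 (adjusted p = 0.00131). Cdkn1c, the CDK inhibitor gene of the Kcnq1 cluster, went from 10.1 ± 4.74 to 6.54 ± 2.61 CPM (log2 −0.59 ± 0.118, adjusted p = 0.0111 with the block and 0.0525 with KO 2 and KO 3 summed). The median log2 fold change of the 22 was −0.09 with the block, beside 0.01 over all genes.

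Factors that keep or erase imprints made up another list, with 19 of 21 tested. Uhrf1, which guides maintenance methylation to replicated DNA, went from 245 ± 85.4 to 307 ± 67.1 CPM, and Zfp57, the zinc finger protein that binds methylated control regions, from 15.6 ± 1.57 to 22.3 ± 6.30 CPM. These 2 rose with the block (log2 0.36 ± 0.0747 and 0.48 ± 0.112, adjusted p = 0.0142 and 0.0257) and 0 fell, against 3.33% and 6.46% of all genes. Without the block 0 of the 19 were called or had an unadjusted p under 0.05 in edgeR, and 0 were called in DESeq2. Among the genes that DESeq2 called higher with the block were Uhrf1 (adjusted p = 0.000442), Zfp57 (adjusted p = 0.00569) and Dnmt1 (adjusted p = 0.0290). In edgeR, numbers 2 and 3 alone also called Uhrf1 and Zfp57 higher (adjusted p = 0.0132 and 0.0160). With KO 2 and KO 3 summed neither was called (adjusted p = 0.0831 and 0.105). In libraries numbered 1, 11 of the 19 were higher, against 28.2% of all genes, and 2 lower, against 29.4%. The median was 0.19 with the block.

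Markers of other cell types were checked because imprinted genes differ between tissues. In bulk samples, fewer cells of a type and less RNA per cell cannot be told apart. Of 10 neuron markers 8 were tested, with summed levels of 571 to 780 CPM in WT and 658 to 779 CPM in KO, and Neurod6 was at or near 0. Syt1 and Stmn2 fell with the block, where 6.46% of all genes fell, and only Syt1 was called lower when KO 2 and KO 3 were summed or number 1 was left out unblocked. Without the block 0 neuron markers were called in edgeR, with 0 at an unadjusted p under 0.05, and 0 in DESeq2. Of 10 meningeal and mesenchymal markers 5 were tested. Foxc1 and Twist1 rose and Col1a2 fell with the block, where 3.33% of all genes rose and 6.46% fell. The same 3 were called with KO 2 and KO 3 summed, and with numbers 2 and 3 alone Twist1 and Col1a2 were called. Without the block edgeR called 0, with 2 at an unadjusted p under 0.05, and DESeq2 called Twist1. The summed level, mostly from Foxc1, was 35.7 to 47.1 CPM in WT and 40.4 to 66.0 CPM in KO. Foxd1 had 0 counts, and Lum was at or near 0. Of 8 choroid plexus markers 2 were tested and none was called, with sums of 10.7 to 28.5 and 10.3 to 30.3 CPM, mostly from Enpp2, and Folr1 and Prlr at 0. Of 7 endothelial markers 3 were tested and of 7 microglia markers 1, none called, with sums of at most 2.46 CPM and Cdh5, Aif1, C1qa and C1qb at 0. The part of these markers in the changes of Asb4, Grb10, Slc38a4, Ndn and Mest was not tested.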

How the data were processed

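RNA-seq counts were analysed for 6 libraries, 3 WT and 3 KO, grouped and numbered by the sample titles. The deposited values are unnormalized counts, whole numbers with 1 row for each symbol. The build mm10 and the tools RSEM, Bowtie2, Trim Galore, cutadapt and FastQC are named in the submitters' processing notes. Tool versions, annotation and strand setting are not given there, so reads of overlapping genes, such as Ube3a with Snhg14 or Mest with Copg2, may be mixed.

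Counts were tested in R 4.3.3 with edgeR 4.0.16 (filterByExpr, TMM, robust quasi-likelihood, two-sided, Benjamini-Hochberg over 13683 genes), and DESeq2 1.42.0 was an alternative. CPM are given as mean ± SD, and standard errors are the log2 fold change over the square root of F. Log2 differences within a number use a prior count of 0.5. GENCODE vM21 (GRCm38, which is mm10) gave positions and exon lengths, and 23334 symbols (95.2%) matched 1 of its genes. The fit was checked on simulated counts.

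WT and KO share numbers 1 to 3. Deviations from the group means correlated at 0.854, 0.604 and 0.580 for the same numbers, all over the limit of 0.1 for treating numbers as pairs, and at 0.633 and 0.578 between numbers 2 and 3. The pairing comes from these correlations, not from the labels, and does not tell numbers 2 and 3 apart. The members and gene lists were chosen with earlier results of these data known. Called genes are given in every library; of the other tested genes, those with a mean of at least 2 CPM by group; of other lists, called members by lowest p.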

Additional observations from a re-analysis of the deposited data

How the results depend on the processing

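Without the block, none of the imprinted genes was called by edgeR with RLE or upper-quartile scaling, with no filter on low counts or with no robust estimation. Over all genes 8 were called as reported, and 6 with upper-quartile scaling. With the replicate block 1340 genes were called, and 1 imprinted gene was higher and 4 were lower. The counts (all genes, imprinted higher, imprinted lower) were 1445, 1 and 4 where the block set number 1 against the other numbers, and 1310, 1 and 5 with the replicate block and upper-quartile scaling. With the replicate block they were 1251, 1 and 4 with RLE scaling and 1661, 3 and 5 with no filter. Of all genes, 510 were higher and 935 lower where number 1 was set against the others, and 327 and 983 with upper-quartile scaling. RLE scaling gave 456 higher and 795 lower. With no filter 620 were higher and 1041 lower, and genes with low counts were tested there too. DESeq2 gave 262, 1 and 2, and 1255, 3 and 5 with the replicate block. Numbers 2 and 3 alone gave 743, 1 and 4, and KO 2 and KO 3 summed gave 688, 1 and 3. With the replicate block the counts were 1037, 1 and 3 without number 1, 1248, 7 and 5 without number 2, and 1456, 2 and 5 without number 3. Leaving out 1 library without the block gave 0 to 21 over all genes, the 21 without WT 1, and 0 imprinted genes. These fits differ in libraries, residual degrees of freedom and block, and no further cause was tested. The replicate block added 5 calls of imprinted genes in edgeR as reported (Asb4, Slc38a4, Grb10, Ndn and Mest). In DESeq2 it added Ndn, Mest, Peg10, Ppp1r9a and Plagl1 to the 3 called without it.

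Asb4, Slc38a4, Grb10 and Ndn kept their direction in all 22 alternatives. Upper-quartile scaling turned Peg12 to −0.00995. With the replicate block and without number 3, the log2 fold change had the other sign for Kcnq1ot1 (−0.0245), Ube3a (−0.0466), Sgce (0.0207), Nap1l5 (0.0407) and Gnas (0.0107). Leaving out 1 library without the block leaves number 1 unequal between WT and KO, and turned the sign of 12 genes, none called there. Their ranges were −0.62 to 0.40 for H19, −0.0154 to 0.395 for Kcnq1ot1, −0.34 to 0.45 for Peg12, −0.0803 to 0.397 for Ube3a, −0.53 to 1.07 for Peg10, −0.13 to 0.12 for Sgce, −0.93 to 0.25 for Mest, −0.0789 to 0.0392 for Nap1l5, −0.17 to 0.31 for Nnat, −0.14 to 0.0743 for Gnas, −0.18 to 0.11 for Impact and −0.28 to 0.00696 for Trappc9. The number of imprinted genes that differ between replicate numbers stayed between 15 and 20. Depth limits Magel2, Slc22a3, Rasgrf1 and Zdbf2, which had at most 12 counts in a library.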

Other observations

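Genes beside the 5 called imprinted genes were read from the blocked edgeR fit, for all tested genes within 500 kb, a window chosen after the data were examined. In that fit 3.33% of all genes were called higher and 6.46% lower. Slc38a4 had 3 such neighbours. Amigo2, which encodes a neuronal adhesion protein, lies 188.2 kb away (chromosome 15, 97244125 to 97247287, GRCm38) and fell with the block, by a log2 fold change of −2.85 ± 0.458 (SE, adjusted p = 0.00377). WT 1, 2 and 3 had 47, 22 and 33 counts of it, and KO 1, 2 and 3 had 6, 1 and 5, so the groups did not overlap. It was not called without the block in edgeR (adjusted p = 0.270) or in numbers 2 and 3 alone (adjusted p = 0.0574). With KO 2 and KO 3 summed edgeR called it lower (adjusted p = 0.00765). DESeq2 called it lower without the block (adjusted p = 0.0136) and with it (adjusted p = 0.00152). Slc38a1, a transporter gene of the same family as Slc38a4, went the other way, from 194 ± 25.7 to 241 ± 16.5 CPM (log2 0.32 ± 0.0689, adjusted p = 0.0156 with the block and 0.112 with KO 2 and KO 3 summed). Slc38a2, which lies between Slc38a1 and Slc38a4, was at 281 ± 14.9 and 307 ± 35.8 CPM and was not called.

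Beside Asb4, 1 of 5 tested neighbours was called lower, as were 6.46% of all genes. Pdk4, a pyruvate dehydrogenase kinase gene 50.3 kb away, went from 4.52 ± 2.14 to 2.72 ± 1.51 CPM, opposite in direction to Asb4 (log2 −0.78 ± 0.169, adjusted p = 0.0174 with the block and 0.0709 with KO 2 and KO 3 summed). Of the 3 tested neighbours of Grb10, the 4 of Ndn and the 8 of Mest, 0 were called with the block. These genes were named after their values were seen.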
